A study of Homo sapiens with 12 samples.

Results

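MOLM-13 is an established human acute myeloid leukaemia (AML) cell line that carries an internal tandem duplication in the receptor tyrosine kinase FLT3 (FLT3-ITD). The comparison described here is that of 3 libraries from MOLM-13 cells treated with quizartinib (AC220, 3 nM) and 3 libraries from cells treated with the solvent DMSO (vehicle), all cultured in regular RPMI medium with 10% fetal bovine serum and harvested after 15 hr. These 6 libraries were chosen by their labels out of 12. The other 6 had the same 2 treatments in hBMSC-CM, medium of which 50% came from cultures of HS-5, a stromal line of human marrow, and they entered the model for the shared estimate of spread and for 1 closing comparison. Poly(A)-selected RNA was sequenced as paired ends, and reads were counted per gene name. Of 57353 gene names in the table, 12998 had both a mean count and a mean CPM (the count scaled to library size) of at least 1 over the 12 libraries and were tested. This filter used no TMM factors, and the CPM values given below are scaled with them. All cells came from 1 line, so the replicates give the spread between cultures of that line and not between patients.

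FLT3 is the receptor of early myeloid progenitors, and the tandem duplication makes it signal without its ligand. The active receptor feeds the RAS-MAPK cascade, STAT5 and the PI3K-AKT-mTOR pathway, which drive transcription of growth genes, in large part through MYC, and keep FOXO factors out of the nucleus. Quizartinib binds the inactive form of the kinase and blocks its activity. Genes that depend on these branches are known readouts of the inhibitor, and how wide the response of the remaining transcriptome is at 15 hr is the question this comparison addresses.

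Total counts ran from 22287982 to 30347953 in the vehicle libraries and from 19966546 to 27910594 in the quizartinib libraries, so a count of 3, the limit that a count of 0 allows, corresponds to 0.0989 to 0.150 CPM and covers counting error only. On log2 CPM, distances between libraries of 1 group ran from 19.8 to 23.6 and between the groups from 101.1 to 104.8, and the first principal component held 94.4% of the variance. Mitochondrially encoded genes took 0.683 to 0.790% of counts with vehicle and 1.02 to 1.10% with quizartinib, and 22072 to 22856 genes were detected with vehicle against 22976 to 24106 with quizartinib. The part of these shifts in the results was not tested. Of 18 AML and myeloid identity markers, 15 were tested, and their summed level was 1469 to 1521 CPM with vehicle and 2319.6 to 2330.5 CPM with quizartinib. CD34 and ANPEP were at or near 0 in all 6 libraries and KIT stayed between 0.231 and 1.03 CPM. None of the 10 erythroid and none of the 8 megakaryocyte markers reached the filter.

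Quizartinib changed the level of most expressed genes. With edgeR's quasi-likelihood test and Benjamini-Hochberg adjustment, 10307 of 12998 genes were called at an adjusted p under 0.05 (79.3%), 5211 of them higher (40.1% of tested genes) and 5096 lower (39.2%). Changes of at least 2-fold were found for 1252 called genes that rose (9.63%) and 1536 that fell (11.8%). At 4-fold the numbers were 197 and 357, and at 8-fold 41 and 68. All 3 quizartinib libraries lay above all 3 vehicle libraries for 5332 genes (41.0%) and below them for 5206 (40.1%), so groups that do not overlap are no distinction for a single gene here. The median log2 fold change was 0.02, the middle 50% of genes lay between -0.49 and 0.47, and the median standard error was 0.07. A call alone therefore says little, and sizes are given throughout. Counts of called genes in a list are to be read beside the 40.1% higher and 39.2% lower of all tested genes. TMM scaling places the bulk of genes near 0. With upper-quartile scaling the median was 0.13 and 57.6% of calls were higher, so the median and the near-even split depend on the scaling. CPM values are shares of a library, and fewer cells that express a gene cannot be told apart from less RNA per cell. The paper reports a lower RNA yield with quizartinib in separate cultures, so a higher share need not mean more RNA per cell.

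**Figure D1:**
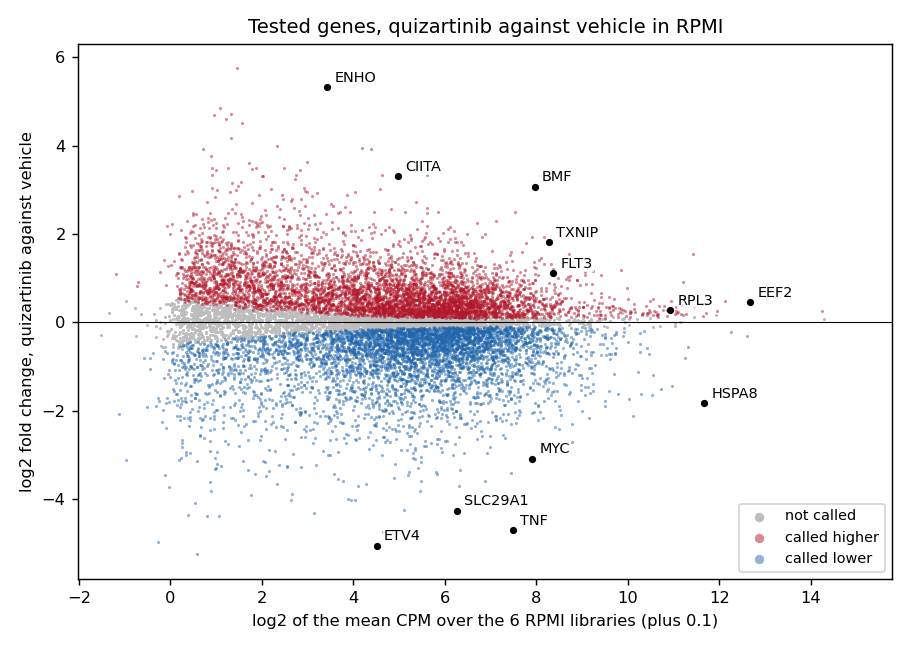
Each point is 1 of 12998 tested genes, with the log2 of its mean CPM over the 6 RPMI libraries on the horizontal axis and the log2 fold change of quizartinib against vehicle on the vertical axis. Red points were called higher, blue points lower and grey points were not called, and the 12 genes in black run from ETV4 at -5.06 to ENHO at 5.33.

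The direction of large changes differed with abundance and with the kind of gene. Among genes under 3 CPM, 21.0% rose at least 2-fold and 12.6% fell at least 2-fold, whereas among genes of 300 CPM or more 2.92% rose and 14.8% fell that far. Large losses were thus about as frequent at high as at low CPM, and large gains were more frequent at low CPM. Of 428 tested long noncoding RNAs, 57.2% rose and 16.8% fell, with a median log2 fold change of 0.46, while 10476 protein-coding genes were split into 39.1% higher and 42.4% lower. At least 2-fold, 24.3% of the noncoding RNAs rose and 7.48% fell, against 8.23% and 11.9% of the protein-coding genes. Abundance and kind of gene were not separated. Use of strand in counting is not given in the sources used here, so a noncoding RNA antisense to a coding gene cannot be told apart from that gene. More genes were detected in the quizartinib libraries, as given above, and the part of this in the gains was not tested.

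The 12 largest decreases were taken among called genes of at least 10 CPM whose groups did not overlap. They were led by ETV4, a PEA3-family transcription factor downstream of MAPK signalling (chr17:43527844-43579620, minus strand on GRCh38). ETV4 had 45.3, 43.2 and 43.5 CPM in the vehicle libraries and 1.09, 1.49 and 1.37 CPM in the quizartinib libraries, a log2 fold change of -5.06 ± 0.10 (SE, adjusted p = 5.64e-20). TNF, the inflammatory cytokine (chr6:31575565-31578336, plus strand), went from 350.2, 336 and 355 CPM to 13.4, 12.5 and 14.2 CPM (-4.71 ± 0.07, adjusted p = 6.66e-22). Separate groups were a condition of this choice, and the spread between replicates was much smaller than the change for both genes. SLC29A1, the equilibrative nucleoside transporter (chr6:44219553-44234142, plus strand), had 154, 139.8 and 145 CPM and then 8.38, 8.03 and 6.20 CPM (-4.26 ± 0.08). Log2 fold changes were -4.74 for the organic anion transporter SLCO4A1, -4.25 for RGS16, which shortens G-protein signals, -4.03 for GPR84, a receptor for medium-chain fatty acids, and -3.99 for the carbonic anhydrase CA2. Both E cyclins, CCNE2 (from 81.4 to 5.74 CPM) and CCNE1 (from 35.9 to 2.87 CPM), and the replication initiation factor MCM10 (from 147 to 11.2 CPM) were in the same group. The remaining members were HPDL (-4.02) and BEND3 (-3.70).

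Most of the 12 largest increases, chosen by the same rule, began at low levels in vehicle. ENHO, which encodes the peptide adropin (chr9:34521043-34522990, minus strand), had 0.615, 0.469 and 0.415 CPM with vehicle and 19.8, 20.3 and 22.2 CPM with quizartinib (5.33 ± 0.15, adjusted p = 8.68e-18). BMF, a BH3-only activator of apoptosis (chr15:40087890-40108892, minus strand), had 51.9, 55.4 and 51.8 CPM in vehicle libraries and 439, 452 and 449 CPM in quizartinib libraries (3.07 ± 0.06, adjusted p = 8.99e-21). CIITA, the master transactivator of HLA class II genes (chr16:10866222-10943021, plus strand), rose from 5.74, 6.22 and 5.21 CPM to 57.6, 56.97 and 56.5 CPM (3.31 ± 0.08). The groups did not overlap for these genes, which was a condition of the choice. CD36, a scavenger receptor for fatty acids and lipoproteins, rose from 5.66 to 55.3 CPM, the signalling adaptor BLNK from 4.41 to 44.9 CPM, SERPINF1, a secreted serpin, from 8.83 to 89.4 CPM, and EPAS1, the hypoxia-inducible factor HIF-2alpha, from 5.29 to 42.8 CPM. AXL, a receptor tyrosine kinase, rose from 10.8 to 71.4 CPM. PROC (3.96), COL24A1 (3.93), OLIG1 (2.88) and TCP11L2 (2.94) completed the group.

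**Figure D2:**
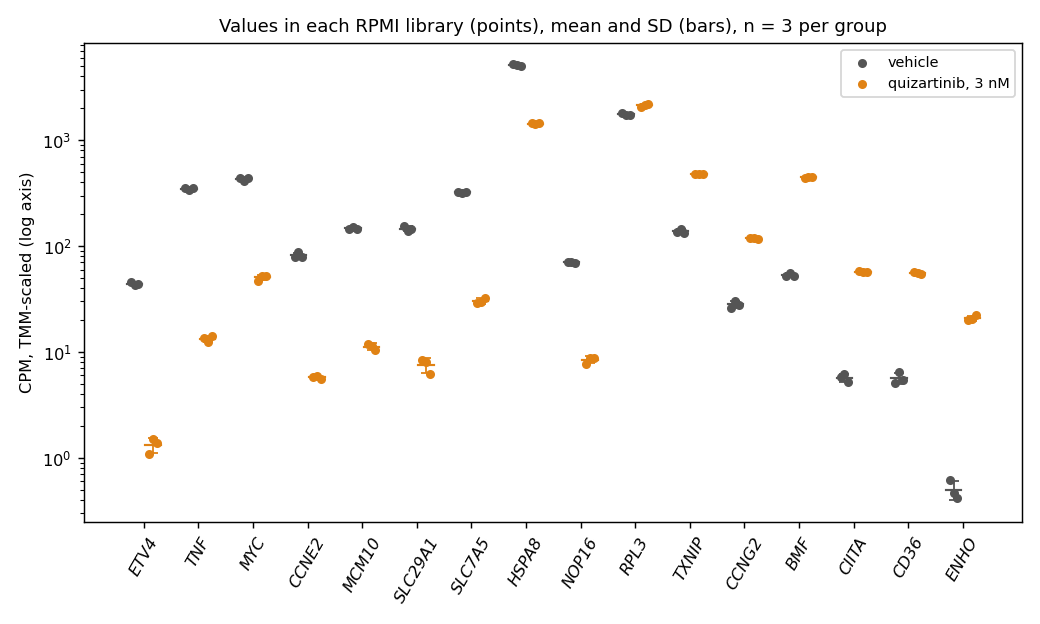
TMM-scaled CPM on a log axis for 16 genes in each of the 6 RPMI libraries, grey for vehicle and orange for quizartinib, with the mean and SD of 3 libraries as bars. The groups are separate for all 16 genes, as they are for 41.0% (higher) and 40.1% (lower) of all tested genes. The 3 points of a group lie close together next to the distance between groups.

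Receptor transcripts rose more often than they fell. Of 25 receptor tyrosine kinases and cytokine receptors tested (39 listed), 16 rose (64%) and 6 fell (24%), against 40.1% and 39.2% of all genes. Of them, 7 rose and 2 fell at least 2-fold. CSF1R, the receptor for the macrophage growth factor M-CSF, had 27.4, 20.4 and 25.6 CPM with vehicle and 95.9, 103 and 98.9 CPM with quizartinib (2.02 ± 0.09, adjusted p = 4.78e-15). IL10RA, a subunit of the interleukin-10 receptor, rose from 15.6 to 67.6 CPM and IL3RA, the alpha chain of the interleukin-3 receptor, from 39.8 to 108 CPM. FLT3 itself, the target of the drug, rose from 209 to 454 CPM. Values went down for FGFR1, a fibroblast growth factor receptor (from 22.8 to 8.53 CPM), and for IL1RAP, the accessory chain of the interleukin-1 receptor (from 27.2 to 16.5 CPM).

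Feedback regulators of the MAPK branch mostly fell. Of 27 tested members of that list, which holds the ERK phosphatases, Sprouty proteins and PEA3 factors, 18 fell, 13 of them at least 2-fold, and 5 rose, with a median log2 fold change of -0.69 against 0.02 over all genes. ETV5, the sister factor of ETV4, had 82.6, 76.99 and 79.9 CPM with vehicle and 10.2, 9.77 and 8.89 CPM with quizartinib (-3.04 ± 0.07, adjusted p = 9.41e-20). SPRY4, an inhibitor of receptor-driven RAS activation, went from 3.42, 3.44 and 2.49 CPM to 0.116, 0.139 and 0.195 CPM, which in the treated libraries is close to the limit that a count of 0 allows. The ERK phosphatase DUSP6 fell by 2.14. Members that went the other way rose by less than 2-fold, such as the phosphatase DUSP3 (0.77) and PHLDA3, an AKT inhibitor (0.69).

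Immediate early factors, the classical fast targets of ERK and other kinases, were mixed at 15 hr. Of 17 tested, 5 fell, 3 rose and 9 were not called. EGR1 fell from 10.5 to 2.63 CPM (-1.97 ± 0.22), FOS did not pass the test (105 to 102 CPM, adjusted p = 0.602), and JUN (0.36), FOSL2 (0.65) and KLF6 (0.37) rose. With no filter on low counts the call of JUN was lost (0.26) and FOS was called lower (-0.14). The list's median of -0.04 turned positive under upper-quartile scaling (0.06), and the number that fell was 3 with library size alone, with upper-quartile scaling, and without vehicle replicate 1 or quizartinib replicate 1, and 8 with no filter on low counts.

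STAT5 targets fell more often than they rose, with 12 lower (57.1%) and 6 higher (28.6%) of 21 tested and a median of -0.33. Over all genes 39.2% were lower and 40.1% higher. PIM1, a serine/threonine kinase that promotes survival, had 30.1, 33.1 and 29.3 CPM with vehicle and 10.7, 13.3 and 12.5 CPM with quizartinib (-1.34 ± 0.07, adjusted p = 3.83e-13). CISH, a feedback inhibitor of cytokine receptors, went from 45.99, 44.5 and 48.7 CPM to 18.8, 19.1 and 18.9 CPM (-1.29 ± 0.08), and the cytokine OSM from 7.66 to 1.60 CPM. Both feedback and survival targets of this branch were thus lower, but SOCS2, another STAT5-induced feedback gene, rose from 138 to 208 CPM, and BCL6, a repressor that STAT5 is known to hold down, rose from 11.1 to 29.4 CPM.

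Genes of the NF-kB pathway and inflammatory mediators fell in 17 of 30 cases (56.7%) and rose in 8 (26.7%), against 39.2% and 40.1% of all genes. TNFAIP3, which encodes the ubiquitin-editing inhibitor A20, fell with TNF, from 101, 103 and 106 CPM to 9.08, 9.80 and 9.67 CPM (-3.44 ± 0.06, adjusted p = 3.09e-21). NFKBIA, the inhibitor IkB-alpha, rose from 56.2 to 73.1 CPM, TNIP1, a partner of A20, from 95.7 to 154 CPM and TNFAIP2 from 40.9 to 103 CPM. Products of the same pathway therefore did not move as a block.

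In the PI3K, AKT and mTOR pathway 19 components rose, 17 fell and 12 of 48 were not called, a split near that of all genes, with a median of 0.03. The 2 largest increases were inhibitors. DEPTOR, which binds and restrains mTOR, had 4.14, 3.68 and 4.10 CPM with vehicle and 25.7, 24.1 and 22.7 CPM with quizartinib (2.61 ± 0.09, adjusted p = 7.26e-17), and PIK3IP1, a membrane inhibitor of PI3K, had 9.95, 10.8 and 10.9 CPM and 59.6, 56.9 and 61.8 CPM (2.50 ± 0.06). DDIT4, a stress-induced mTORC1 inhibitor, went the other way (from 89.2 to 59.3 CPM). EIF4EBP1, the translation repressor that mTORC1 phosphorylates, fell from 122, 116 and 123 CPM to 28.2, 30.5 and 31.6 CPM (-1.999 ± 0.06), whereas its homologue EIF4EBP2 had 178 and 172 CPM and was not called.

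MYC was in the group of genes down more than 8-fold, at 440.5, 413 and 435 CPM with vehicle and 47.3, 51.9 and 52.5 CPM with quizartinib (-3.09 ± 0.05, adjusted p = 3.09e-21). MYC acts as a dimer with MAX, and the MXD proteins compete for MAX and repress the same sites. MXD4 rose from 35.7, 37.9 and 35.4 CPM to 159, 179 and 182 CPM (2.25 ± 0.05, adjusted p = 2.9e-19), MXD1 from 17.7 to 32.2 CPM and MXI1 from 31.2 to 39.9 CPM. These antagonists were higher in every quizartinib library than in any vehicle library, as were 41.0% of all tested genes. Over the whole list of MYC and the MAX network, 6 of 13 tested genes rose (46.2%) and 5 fell (38.5%), near the 40.1% and 39.2% of all genes. The members that fell included MYCBP, a MYC-binding protein (29.5 to 18.8 CPM), MAX itself (-0.18) and MNT, another antagonist (-0.33), the last pair named after their values were seen.

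Ribosome assembly factors fell nearly as a whole. Assembly takes place in the nucleolus, where pre-rRNA is cut, modified and folded by a large set of factors, many of them known MYC targets. All 131 listed nucleolar factors were tested. Of these, 127 fell, 85 of them at least 2-fold, and 2 rose, against 39.2% and 11.8% of all genes for a fall and a 2-fold fall, with a median of -1.27. Together they took 1.81% ± 0.00359 (SD, n = 3) of all counts with vehicle and 0.928% ± 0.00619 with quizartinib. NOP16 had 71.3, 71.0 and 68.98 CPM with vehicle and 7.68, 8.76 and 8.84 CPM with quizartinib (-3.06 ± 0.06), and RRP9, a protein of the U3 small nucleolar particle, 73.4, 73.2 and 67.8 CPM and 9.51, 9.84 and 9.62 CPM (-2.89 ± 0.08). NOLC1, a nucleolar phosphoprotein that chaperones small nucleolar particles, fell from 314 to 64.9 CPM and nucleolin, NCL, a major nucleolar protein, from 1654 to 756 CPM. The methyltransferase fibrillarin, FBL, fell by only 0.47, and NPM1, nucleophosmin, with 2161 and 2035 CPM, was not called (adjusted p = 0.108). NPM1 was called lower with the 6 RPMI libraries alone (-0.09), with edgeR's own filter (-0.14) and with no filter (-0.19). The exceptions that rose were NOP53 (from 208 to 342 CPM) and UTP6 (0.12), the latter not past the threshold without vehicle replicate 1 or 3 or quizartinib replicate 1 (values from 0.07 to 0.11), with edgeR's own filter on low counts or with none.

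Many MYC target genes carry an E-box of the letters CACGTG near their start. To show where these letters stand, 120 bases out of the 250 before the start are printed for the nucleolar genes EXOSC5, a subunit of the RNA exosome, and UTP20, a scaffold of the small-subunit processome. They were the nucleolar genes with the largest falls that had an E-box in a window outside annotated exons. The EXOSC5 window lies at chr19:41397385-41397504 (minus strand, 145 to 26 bases before the start). EXOSC5 had 37.7, 34.03 and 36.6 CPM with vehicle and 5.55, 8.13 and 8.06 CPM with quizartinib, a log2 fold change of -2.32. The UTP20 window lies at chr12:101279985-101280104 (plus strand, 120 to 1 bases before the start), and UTP20 had 154, 156 and 156 CPM and 56.4, 55.3 and 56.2 CPM (-1.47). Sequences are from RefSeq on GRCh38.p14, 5′ to 3′ on the gene's strand, with the E-box in capitals.
EXOSC5: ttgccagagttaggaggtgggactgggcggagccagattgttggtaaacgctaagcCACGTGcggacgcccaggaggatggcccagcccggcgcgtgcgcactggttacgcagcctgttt
UTP20: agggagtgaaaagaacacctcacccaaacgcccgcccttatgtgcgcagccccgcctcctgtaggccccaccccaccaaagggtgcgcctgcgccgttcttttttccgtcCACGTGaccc

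The polymerases that make the RNA of the ribosome fell with its assembly factors. Of 36 subunits and factors of RNA polymerases I and III, 26 fell, 12 at least 2-fold, and 6 rose. CD3EAP, a subunit of RNA polymerase I, fell from 65.9 to 9.76 CPM and POLR1B, its second-largest subunit, from 107, 106 and 101 CPM to 38.3, 36.3 and 37.9 CPM (-1.48 ± 0.05). Among the 12 tested subunits of RNA polymerase II, 10 fell, led by POLR2H and POLR2D (-1.25 and -1.24), while POLR2A, the catalytic subunit, rose from 120.1, 109 and 114 CPM to 126, 154 and 123 CPM (0.24). Quizartinib replicate 2 was the highest, and without it the POLR2A value was 0.13.

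The protein components of the cytosolic ribosome did not follow the factors that assemble it. Of 85 tested, 55 rose, 11 fell and 19 were not called, with a median of 0.18. Their share of all counts was 8.11% ± 0.108 with vehicle and 9.78% ± 0.204 with quizartinib (SD, n = 3). RPL3 had 1811, 1741 and 1745 CPM and then 2071, 2164 and 2177 CPM (0.28 ± 0.05), RPS27 rose from 588 to 793 CPM and RPS20 from 1179.9 to 1525 CPM. None rose 2-fold. The number that rose was 34 when no filter on low counts was applied. RPL36A fell at least 4-fold, but genes with near-identical copies or read-through neighbours, as it has, are uncertain because reads can be split between names. EEF2, the translocase of elongation, rose from 5665, 5437 and 5471 CPM to 7121, 7735 and 7905 CPM (0.46 ± 0.05), and EIF4B, an initiation factor, from 1637 to 2299 CPM.

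Mitochondrial ribosomal proteins moved the other way from the cytosolic ones. Of 81 tested, 66 fell, 14 at least 2-fold, and 5 rose, with a median of -0.50. MRPL17 fell from 74.8 to 20.4 CPM and MRPL24 from 49.9 to 14.9 CPM, while MRPS6 rose from 15.5 to 24.1 CPM. MRPL12, with 3.03 and 0.758 CPM, was low in both groups.

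Initiation factors and tRNA synthetases fell more often than they rose. Of 51 initiation factors, 27 fell (52.9%) and 11 rose (21.6%), against 39.2% and 40.1% of all genes. The number that rose was 17 with upper-quartile scaling. EIF5A, which relieves stalled ribosomes, fell from 432, 394 and 411 CPM to 106, 114 and 117 CPM (-1.88 ± 0.05). The initiation factors took 1.49% of all counts with vehicle and 1.49% with quizartinib. Of 17 elongation and termination factors 10 fell and 3 rose, but their summed share went from 2.55% to 3.18%, and EEF2, given above, is among those that rose. DPH2, an enzyme of the diphthamide modification of EEF2, fell from 62.1 to 12.4 CPM. Among 23 cytosolic tRNA synthetases, which load amino acids onto tRNAs, 22 fell, 12 of them at least 2-fold, with a median of -1.03. VARS, the valyl enzyme, had 405, 395 and 399.5 CPM with vehicle and 91.6, 97.7 and 104 CPM with quizartinib, and FARSB, a subunit of the phenylalanyl enzyme, 88.8, 89.9 and 88.2 CPM and 21.2, 21.4 and 20.3 CPM. The only 1 of this list to rise was QARS, the glutaminyl enzyme, from 385 to 486 CPM. Their mitochondrial counterparts fell in 11 of 17 cases and rose in 2.

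Protein folding and transport followed. Of 26 chaperonins and chaperones, 23 fell, 15 at least 2-fold, and 3 rose, and their share of all counts went from 1.85% to 0.874%. HSPA8, the constitutive HSP70, had 5184, 5098 and 5007 CPM with vehicle and 1443, 1418 and 1444 CPM with quizartinib (-1.83 ± 0.05, adjusted p = 7.9e-18). The mitochondrial chaperonin pair HSPD1 and HSPE1 fell from 1145 to 509 CPM and from 20.1 to 4.57 CPM. Those that rose included the prefoldin subunits PFDN4 (0.49) and PFDN5 (0.29). Mitochondrial import factors fell in 26 of 31 cases, for example CHCHD4, the oxidoreductase of the intermembrane space, from 42.8 to 12.2 CPM. Of 55 nuclear pore and transport genes, 51 fell, 21 at least 2-fold, and 4 were not called, whereas library size alone or upper-quartile scaling gave 1 that rose. RANBP1, a cofactor of the RAN GTPase, fell from 261, 270.0 and 263 CPM to 45.7, 43.5 and 46.7 CPM (-2.55 ± 0.05) and the export receptor XPO1 from 625 to 366 CPM. Proteasome genes fell less far, 36 of 46 with 5 at least 2-fold and a median of -0.49, and the immunoproteasome subunit PSMB10 rose from 22.2 to 28.9 CPM.

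**Figure D3:**
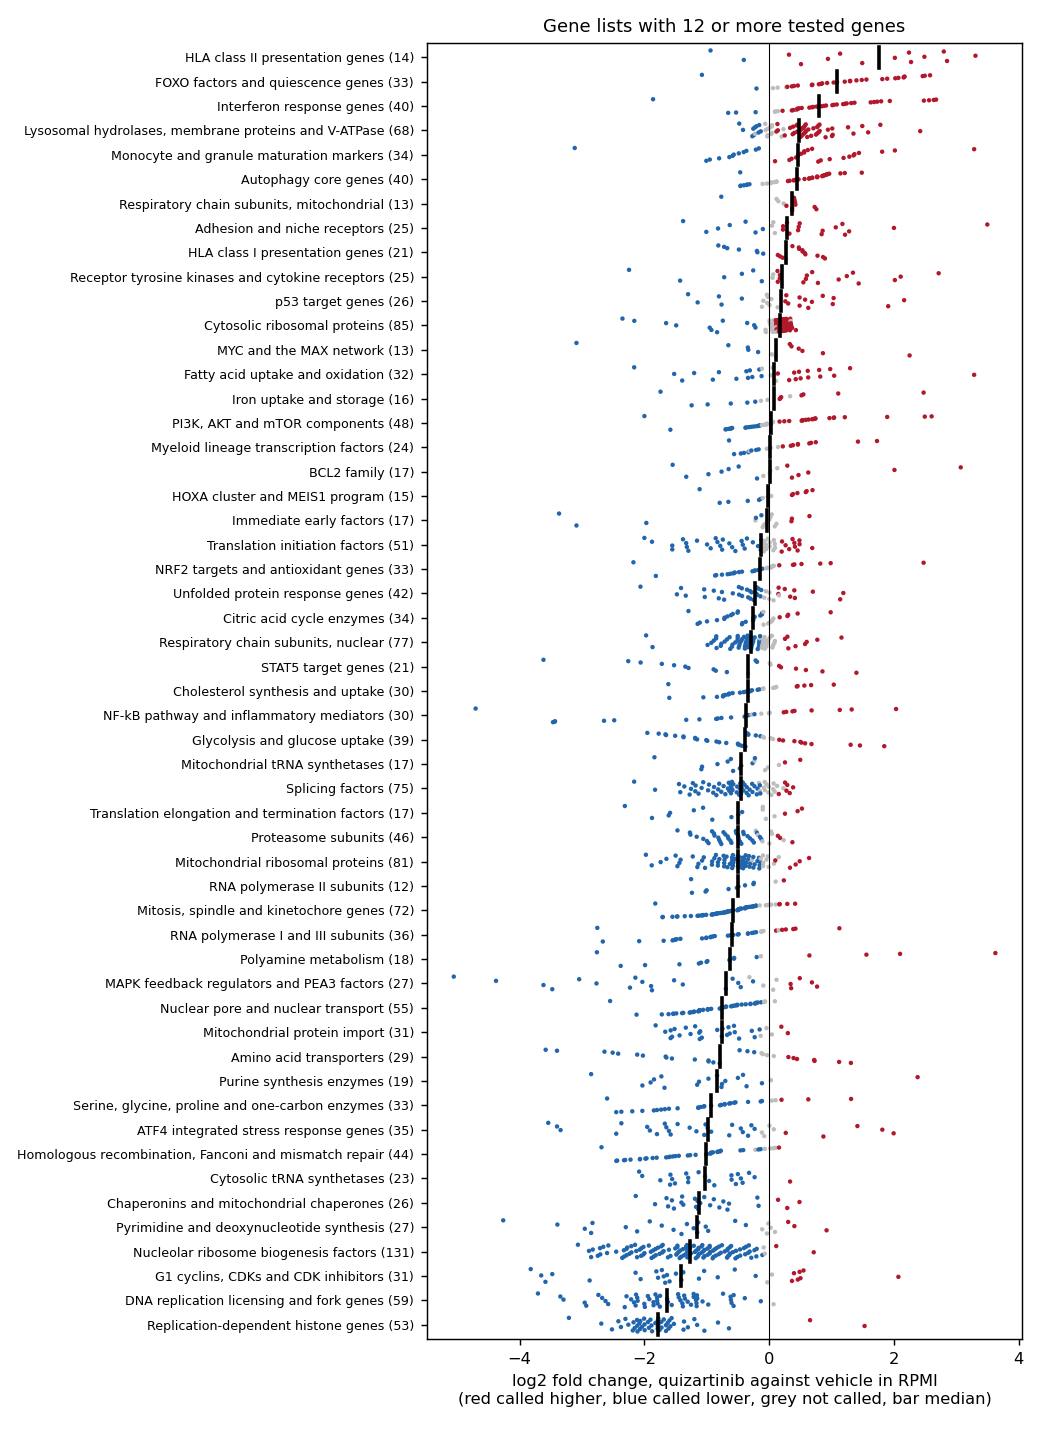
Log2 fold change of quizartinib against vehicle in RPMI for every tested gene of each list with 12 or more tested genes, 1 point per gene, coloured by call, with a black bar at the list median. Lists run from HLA class II genes at the top (median 1.76) to replication-dependent histone genes at the bottom (median -1.79).

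Metabolic genes that supply building blocks fell. Of 29 tested amino acid transporters, 18 fell, 11 at least 2-fold, and 7 rose. SLC7A1, the carrier of cationic amino acids, had 222, 207 and 219.8 CPM with vehicle and 17.2, 17.6 and 19.6 CPM with quizartinib (-3.58 ± 0.07, adjusted p = 1.93e-20), and SLC1A5, the glutamine carrier, 307, 286 and 295 CPM and 65.7, 77.2 and 75.9 CPM (-2.02 ± 0.06). The subunits of the leucine exchanger, SLC7A5 and SLC3A2, fell from 321 to 30.5 CPM and from 176 to 56.2 CPM. SLC43A2, a facilitated carrier of large neutral amino acids, rose instead, from 45.04 to 112 CPM, and SLC7A11, the cystine carrier, had 48.2 and 50.6 CPM and was not called (0.08). SLC7A11 was called higher without quizartinib replicate 3 (0.14), with library size alone (0.17) and with upper-quartile scaling (0.18).

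ATF4 is the transcription factor of the integrated stress response, and its targets include enzymes and carriers for amino acids. Of 35 tested genes of that list, 26 fell, 17 at least 2-fold, and 5 rose, with a median of -0.99. PSAT1, an enzyme of serine synthesis, had 133, 122 and 127 CPM with vehicle and 24.8, 24.99 and 24.3 CPM with quizartinib (-2.37 ± 0.06). The pseudokinase TRIB3 fell from 37.2 to 9.68 CPM and the secreted hormone STC2 from 23.03 to 1.97 CPM, while ATF4 itself fell by 0.42 only. ASNS, asparagine synthetase, had 2.33, 2.70 and 2.17 CPM and 0.931, 0.695 and 0.733 CPM, a low level at which the standard error was 0.19. KLHL24, counted in this list, rose from 46.96 to 187 CPM. DDIT3, the factor CHOP, rose from 8.69 to 10.5 CPM, a call that was lost without vehicle replicate 1 (0.22) or quizartinib replicate 1 (0.24), and with edgeR's filter or no filter on low counts.

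Serine, glycine, proline and one-carbon enzymes fell in 28 of 33 cases, 16 of them at least 2-fold. MTHFD2, the mitochondrial folate enzyme, went from 341, 355 and 326 CPM to 129.8, 119 and 121 CPM (-1.47 ± 0.05), the folate carrier SLC19A1 from 43.8 to 7.19 CPM, PYCR3, an enzyme of proline synthesis, from 19.4 to 3.58 CPM and SHMT2 from 419 to 269 CPM.

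Both nucleotide pathways were lower. Of 19 purine synthesis enzymes, 17 fell and 1 rose, and PPAT, the first committed enzyme, had 67.1, 67.1 and 68.6 CPM with vehicle and 18.0, 19.2 and 19.3 CPM with quizartinib (-1.84 ± 0.06). PFAS fell from 210.5 to 51.6 CPM, whereas IMPDH2, which opens the branch to GTP, fell by 0.11 on the log2 scale, a call lost with library size alone or upper-quartile scaling and without vehicle replicate 1 or 2 or quizartinib replicate 1 or 2 (values from -0.11 to -0.09). In the pyrimidine and deoxynucleotide list 19 of 27 fell, 16 at least 2-fold, and 3 rose. CAD, the enzyme of the first 3 steps of pyrimidine synthesis, had 299, 275 and 298 CPM with vehicle and 55.9, 60.5 and 61.05 CPM with quizartinib (-2.30 ± 0.06). RRM2, the small subunit of ribonucleotide reductase, fell from 480.4 to 67.5 CPM, TYMS, thymidylate synthase, from 125 to 43.04 CPM and NME1 from 106 to 14.6 CPM, although NME1 reads can be shared with its neighbour NME2. SAMHD1, which degrades deoxynucleotides, rose from 46.3 to 87.7 CPM.

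In polyamine metabolism the enzymes of synthesis and of breakdown went apart. ODC1, the rate-limiting enzyme of synthesis, had 315, 309 and 313 CPM with vehicle and 80.6, 78.2 and 77.4 CPM with quizartinib (-1.99 ± 0.04, adjusted p = 1.51e-19), and SRM, spermidine synthase, fell from 98.8 to 14.6 CPM. SAT1, which acetylates polyamines for breakdown and export, had 28.1, 27.6 and 28.4 CPM and 90.2, 78.6 and 79.6 CPM (1.56 ± 0.06), and OAZ2, an inhibitor of ODC1, rose from 21.5 to 33.7 CPM. In all, 13 of 18 genes of the list fell and 4 rose.

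Glycolysis genes fell in 25 of 39 cases and rose in 10. LDHA, lactate dehydrogenase A, had 566, 478 and 522 CPM with vehicle and 154, 153 and 152 CPM with quizartinib (-1.77 ± 0.07), and the glucose transporter SLC2A3 fell from 75.8 to 19.6 CPM. TXNIP, an inhibitor of glucose uptake that MYC is known to repress and glucose to induce, rose from 134, 145 and 133 CPM to 483, 484 and 483 CPM (1.82 ± 0.05, adjusted p = 1.35e-18). PDK2, which inactivates pyruvate dehydrogenase, rose from 17.03 to 46.9 CPM and the fructose transporter SLC2A5 from 15.8 to 39.2 CPM.

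The subunits of the respiratory chain were split by genome. Of 77 encoded in the nucleus, 51 fell and 8 rose (13 with upper-quartile scaling), mostly by little, with a median of -0.29. Cytochrome c, CYCS, fell from 257, 258 and 240.4 CPM to 70.7, 67.8 and 68.5 CPM (-1.87 ± 0.05), and TFAM, the factor that packages and transcribes mitochondrial DNA, from 141 to 57.4 CPM. Of the 13 encoded in mitochondrial DNA, 9 rose and 1 fell, with a median of 0.37, in libraries whose share of mitochondrially encoded counts was higher throughout. MT-CO1 had 2618, 2823 and 3117 CPM and 4018, 3726 and 3726 CPM (0.42 ± 0.10), MT-ND1, with 89.2 and 96.6 CPM, was not called, and MT-ND6, the 1 gene of the list on the light strand, fell from 16.4 to 9.62 CPM. Citric acid cycle genes fell in 22 of 34 cases and rose in 5 (9 with upper-quartile scaling), IDH3A from 85.8 to 39.7 CPM. Citrate synthase, CS, fell by 0.11 on the log2 scale, a call lost with library size alone or upper-quartile scaling and without any single library other than vehicle replicate 2 (values from -0.11 to -0.08).

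Cholesterol synthesis and uptake genes fell in 20 of 30 cases, among them SQLE, squalene epoxidase, from 184 to 88.5 CPM, with 5 that rose (8 with upper-quartile scaling), among them the lysosomal cholesterol transporters NPC1 (0.57) and NPC2 (0.67). Of 11 LXR target and efflux genes tested, 6 rose (54.5%) and 3 fell (27.3%), against 40.1% and 39.2% of all genes. ABCA1, the cholesterol exporter, rose from 3.33 to 15.8 CPM, and MYLIP, which degrades the LDL receptor, from 45.9 to 112 CPM. The members that fell included FASN, the fatty acid synthase, from 438, 411 and 453 CPM to 94.6, 115 and 111 CPM (-2.02 ± 0.07), and SCD, a fatty acid desaturase, from 283 to 123 CPM. Of 32 fatty acid uptake and oxidation genes 14 rose and 13 fell (43.8% and 40.6%), near the shares of all genes (40.1% and 39.2%). The carnitine carrier SLC25A20 rose from 12.4 to 30.7 CPM and FABP5, a fatty acid binding protein, fell from 98.3 to 21.9 CPM.

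The machinery of DNA replication fell almost without exception. Of 59 licensing and fork genes, 58 fell, 49 of them at least 2-fold (11.8% over all genes), and 1 was not called, with a median of -1.64. With library size alone or upper-quartile scaling 1 gene of the list rose. CDC6, which loads the MCM helicase on origins, had 146, 149.9 and 145 CPM with vehicle and 14.9, 14.4 and 13.97 CPM with quizartinib (-3.35 ± 0.06, adjusted p = 3.09e-21). MCM5, a helicase subunit, went from 458, 442 and 447 CPM to 145, 153 and 159 CPM (-1.56 ± 0.04) and PCNA, the sliding clamp, from 394 to 111 CPM.

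E2F factors drive these genes at the G1/S transition and bind sites such as TTTGGCGC, TTTCGCGC, TTTCCCGC or TTTGCCGC. Upstream sequences are shown for GINS2, a subunit of the CMG helicase, and MCM6, a subunit of the MCM ring, the genes of the list with the largest falls that held such a site outside annotated exons. The GINS2 window lies at chr16:85688955-85689074 (minus strand, 120 to 1 bases before the start). GINS2 had 77.8, 76.1 and 79.4 CPM with vehicle and 7.99, 7.68 and 8.11 CPM with quizartinib, a log2 fold change of -3.30. The MCM6 window lies at chr2:135876532-135876651 (minus strand, 208 to 89 bases before the start), and MCM6 had 280.5, 262 and 276 CPM and 44.96, 45.5 and 42.3 CPM (-2.62). Sequences are from RefSeq on GRCh38.p14, 5′ to 3′ on the gene's strand. Capitals mark the match on either strand, and in MCM6 a pair of matches overlap.
GINS2: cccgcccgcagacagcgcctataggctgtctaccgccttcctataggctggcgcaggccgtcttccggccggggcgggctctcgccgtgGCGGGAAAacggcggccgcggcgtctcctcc
MCM6: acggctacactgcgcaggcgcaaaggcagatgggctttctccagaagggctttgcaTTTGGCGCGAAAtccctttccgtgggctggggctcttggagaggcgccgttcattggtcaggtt

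Cell cycle regulators upstream of replication fell too. Of 31 G1 cyclins, kinases and inhibitors tested, 22 fell, 19 at least 2-fold, and 7 rose. The D cyclin CCND2 had 212, 212 and 217 CPM with vehicle and 66.1, 63.96 and 64.8 CPM with quizartinib (-1.72 ± 0.04), and CCND3 398, 386 and 383 CPM and 86.9, 93.3 and 100.1 CPM (-2.06 ± 0.05). E2F1 fell from 58.2 to 7.88 CPM and CDK4 from 122 to 34.99 CPM. CCNG2, a cyclin found in resting cells, had 26.1, 30.6 and 27.99 CPM and 120.2, 119 and 117 CPM (2.07 ± 0.05, adjusted p = 1.68e-18), and the inhibitors CDKN1B (p27) and CDKN2C (p18) rose by 0.40 and 0.50. CDKN1A (p21), with 225 and 221 CPM, was not called.

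Mitotic genes mostly fell, but few by 2-fold. Of 72 tested, 62 fell, 14 at least 2-fold, and 4 rose (7 with upper-quartile scaling, 2 with no filter), with a median of -0.58. PLK1 had 180.3, 158 and 172 CPM with vehicle and 114, 124 and 125 CPM with quizartinib (-0.49 ± 0.06), AURKA fell from 131 to 93.4 CPM and CCNB1 from 197 to 138 CPM. The exceptions included ASPM, a spindle pole protein, which rose from 377 to 462 CPM, and the phosphatase CDC25B (0.42). Genes of homologous recombination, the Fanconi pathway and mismatch repair lay between, with 38 of 44 lower, 22 at least 2-fold, and a median of -1.004. EXO1, an exonuclease of end resection and mismatch repair, fell from 112, 112 and 108 CPM to 16.3, 18.2 and 17.1 CPM (-2.69 ± 0.05) and BRCA1 from 193 to 61.7 CPM. ATM, the kinase that senses double-strand breaks, rose by 0.16 on the log2 scale, a call lost with no filter on low counts.

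Replication-dependent histone genes had the lowest median (-1.79) of the lists with 12 or more tested genes. Of 53 tested of 89 listed, 51 fell, 49 at least 2-fold, and their share of all counts went from 2.18% ± 0.0507 to 0.685% ± 0.0469 (SD, n = 3). HIST1H3A had 115, 114 and 113 CPM with vehicle and 15.4, 18.98 and 18.7 CPM with quizartinib. These messages mostly lack a poly(A) tail and have near-identical copies, so their level in poly(A)-selected RNA and the split between copies are uncertain. Of 75 tested splicing factors 55 fell and 6 rose (10 with upper-quartile scaling), SRSF7 from 287 to 80.8 CPM and HNRNPAB from 310.2 to 69.2 CPM, while HNRNPU rose from 2029 to 2652 CPM.

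FOXO factors and genes of quiescence mostly rose. When AKT is inactive FOXO proteins enter the nucleus and turn on genes of arrest, stress resistance and apoptosis. Of 33 tested, 28 rose, 18 of them at least 2-fold (9.63% over all genes), and 2 fell, with a median of 1.09. FOXO3 had 105, 104 and 109 CPM with vehicle and 186, 185 and 181 CPM with quizartinib (0.80 ± 0.05). YPEL5 rose from 14.9, 12.9 and 14.1 CPM to 82.5, 80.96 and 88.2 CPM (2.58 ± 0.06), BTG1, an antiproliferative factor, from 22.8, 20.97 and 22.6 CPM to 55.7, 53.5 and 53.97 CPM (1.30 ± 0.06) and KLHL24 as given above. CITED2, a FOXO3 target, fell by 0.20, a call lost with upper-quartile scaling. The other gene that fell did so at least 2-fold, and the lowest log2 fold change in the list was -1.08.

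The BCL2 family decides on mitochondrial apoptosis. Of 17 tested, 6 rose (35.3%) and 7 fell (41.2%), near the 40.1% and 39.2% of all genes, with a median of 0.01. BCL2, the anti-apoptotic founder, fell from 216, 227 and 225 CPM to 117, 116 and 108 CPM (-0.97 ± 0.05) and MCL1 from 291 to 255 CPM. Of the BH3-only activators, BMF rose as given above, BCL2L11 (BIM) rose from 36.4, 33.6 and 40.8 CPM to 51.5, 49.95 and 51.97 CPM (0.47 ± 0.08) and BBC3 (PUMA) from 9.59 to 14.9 CPM, but BID fell from 65.8 to 22.5 CPM. Of 26 p53 target genes 13 rose (50%) and 5 fell (19.2%), against 40.1% and 39.2% of all genes. The number that fell was 9 with no filter on low counts. BTG2 rose from 25.1 to 113 CPM and TP53INP1 from 16.1 to 60.3 CPM, and MDM2 was not called at 332 and 324 CPM.

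Lysosome and autophagy genes rose in most cases but by little. Of 68 tested genes of lysosomal hydrolases, membrane proteins and the V-ATPase, 45 rose, 9 at least 2-fold, and 10 fell (5 with upper-quartile scaling, 16 with no filter), with a median of 0.48. CTSO, a cysteine cathepsin, rose from 10.4, 12.6 and 10.7 CPM to 36.0, 32.5 and 33.1 CPM (1.59 ± 0.09) and FUCA1, alpha-fucosidase, from 31.9 to 89.99 CPM, while CTSD (46.3 to 47.6 CPM) and LAMP1 (233 to 224 CPM) were not called. Of 40 autophagy genes, 25 rose, among them ULK1, the initiating kinase, from 18.01 to 34.6 CPM and GABARAPL1, an ATG8 protein of the autophagosome, from 16.5, 19.6 and 16.5 CPM to 49.4, 47.8 and 50.5 CPM (1.49 ± 0.07), and 7 fell. Unfolded protein response genes went mostly down, 27 of 42 against 9, with XBP1 from 160.2, 158 and 161 CPM to 38.7, 37.2 and 38.97 CPM (-2.06 ± 0.04) and the ER chaperone HSPA5 from 303 to 164 CPM, while its sensor ERN1 (IRE1) rose from 16.7 to 38.2 CPM. NRF2 targets and antioxidant genes fell in 18 of 33 cases and rose in 7 (12 with upper-quartile scaling), with PRDX4 from 54.1 to 12.1 CPM and ME1, which rose, from 15.8 to 31.3 CPM. HMOX1, heme oxygenase, rose from 3.83, 4.03 and 3.60 CPM to 20.02, 20.96 and 23.2 CPM (2.48 ± 0.10). Of 16 iron genes 7 rose (43.8%) and 6 fell (37.5%), near the 40.1% and 39.2% of all genes, with the transferrin receptor TFRC down from 482 to 204 CPM and the ferritin FTH1 up from 684 to 980.3 CPM.

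Genes of antigen presentation by HLA class II had the highest median of those lists (1.76). Of 14 tested, 12 rose, 9 at least 2-fold, and 2 fell. That was 1 with library size alone, with upper-quartile scaling, and without vehicle replicate 2 or 3 or quizartinib replicate 2 or 3. HLA-DRA had 7.18, 6.26 and 6.04 CPM with vehicle and 37.01, 35.98 and 37.4 CPM with quizartinib (2.49 ± 0.07, adjusted p = 7.71e-18), and CD74, the invariant chain, 353, 318 and 335 CPM and 707, 746 and 764 CPM (1.14 ± 0.05). HLA genes are so alike and so variable that reads can be assigned to the wrong copy. Class I presentation was more even, with 13 of 21 higher and 7 lower (4 with upper-quartile scaling), none by 2-fold. B2M rose from 1198 to 1668 CPM and HLA-E from 420.1 to 766 CPM, while CALR, a chaperone of class I molecules, fell from 1058 to 642 CPM.

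Interferon response genes rose in 32 of 40 cases, 17 at least 2-fold, and fell in 4, with a median of 0.81. OAS1, a sensor of double-stranded RNA, had 8.21, 8.65 and 7.38 CPM with vehicle and 51.02, 46.3 and 46.6 CPM with quizartinib (2.57 ± 0.07, adjusted p = 7.71e-18). ISG20, an exonuclease, had 2.94, 3.09 and 3.73 CPM and 19.3, 20.8 and 20.4 CPM (2.64 ± 0.10). IRF7, a master factor of interferon genes, went from 19.1, 20.2 and 21.8 CPM to 60.7, 72.2 and 69.7 CPM (1.73 ± 0.07). The groups did not overlap for any of these genes, as was so in the same direction for 41.0% of all tested genes. BST2, another classical interferon-induced gene, instead fell from 75.3 to 47.9 CPM.

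Markers of the myeloid lineage moved in part. Of 34 tested monocyte and granule markers (51 listed), 22 rose, 8 at least 2-fold, and 12 fell, 2 at least 2-fold. LYZ, lysozyme, rose from 275 to 354 CPM, whereas the integrin chains ITGAM (CD11b) and ITGB2 (CD18), which pair in the monocyte adhesion receptor, both fell, from 23.6, 21.7 and 22.5 CPM to 10.6, 11.4 and 11.9 CPM and from 424 to 163 CPM. The monocyte markers CD14, FCN1 and FCGR3A were near 0 in all 6 libraries and were not tested. MPO, the granule enzyme, was low in both groups (4.10 to 3.08 CPM), and its fall did not pass the threshold with library size alone or upper-quartile scaling or without vehicle replicate 3 (-0.26) or quizartinib replicate 1 (-0.29). Of 24 lineage transcription factors, 10 rose (41.7%) and 9 fell (37.5%), near the shares of all genes (40.1% and 39.2%). SPI1 (PU.1) rose from 78.9 to 103 CPM, RUNX2 from 20.6 to 68.02 CPM, and CEBPA, the factor of granulocyte commitment, fell from 222 to 168 CPM. In the HOXA and MEIS1 program 6 rose and 6 fell of 15, again near those shares, with a median of -0.02 that turned positive under upper-quartile scaling (0.08). MEIS1 rose from 129 to 209 CPM, DOT1L, a histone methyltransferase that MLL-rearranged leukaemias need for HOXA expression, fell from 139.9 to 64.6 CPM, and HOXA9 had 23.7 and 23.3 CPM and was not called. Of 25 adhesion and niche receptors, 15 rose (60%) and 7 fell (28%), against 40.1% and 39.2% of all genes. CXCR4, the receptor for the marrow chemokine CXCL12, had 102, 98.1 and 97.2 CPM with vehicle and 228, 227 and 238 CPM with quizartinib (1.22 ± 0.04).

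Markers of other cells were low but not all still. Of 10 T-cell markers 5 were tested, 3 higher and 2 lower, with a summed level of 137 to 141 CPM with vehicle and 208 to 227 CPM with quizartinib. Of 8 B-cell markers 2 were tested, both higher, with 15.7 to 17.2 CPM and 29.4 to 31.6 CPM. CD4, which myeloid cells also express, made up most of the T-cell sum (130.3 to 207 CPM), and the defining genes CD3E and CR2 were at 0 in all 6 libraries. Chosen after their values were seen, the T-cell co-receptor gene CD28 rose from 0.103, 0.117 and 0.0461 CPM to 4.97, 5.74 and 4.84 CPM and the collagen gene COL1A1 from 0.137, 0.117 and 0.277 CPM to 4.35, 4.66 and 4.84 CPM. Of the 10 stromal markers 6 were at 0 in all 6 libraries, DCN, LUM and CXCL12 among them. The part of these markers in the other results was not tested.

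Pairs of genes with related or opposed roles were compared member by member. Of 25 pairs listed, both genes were tested in 24, and in 13 of these the members were called in opposite directions, in 9 in the same direction and in 2 not both called. POLR3G and POLR3GL, alternative subunits of RNA polymerase III of which the former is typical of growing cells, came after MYC and MXD4 in the distance between members. POLR3G had 38.5, 39.5 and 38.8 CPM with vehicle and 5.63, 6.78 and 5.91 CPM with quizartinib (-2.67 ± 0.07). POLR3GL had 12.5, 12.2 and 11.1 CPM and 26.8, 26.4 and 25.4 CPM (1.13 ± 0.07). RRM2 fell while RRM2B, the small reductase subunit used outside S phase, rose from 118, 128 and 120.1 CPM to 163, 146 and 144 CPM (0.31 ± 0.05). RBL1 (p107) fell and RBL2 (p130), the pocket protein of resting cells, rose, with log2 fold changes of -1.41 and 0.46. CDK4 fell by 1.81 and CDK6 rose by 0.37, and LMNB1 fell by 0.97 and LMNA rose by 0.21, the last call being lost with no filter on low counts. DNMT1, the maintenance methyltransferase, fell by 1.36 and DNMT3A, a de novo enzyme, rose by 0.25. TOP2A fell by 0.22 and TOP2B, which works in resting cells too, rose by 0.68. EEF2K, the kinase that inhibits EEF2, fell by 0.60 while EEF2 rose, and NFKBIE fell by 0.23 while NFKBIA rose, a call of NFKBIE that was lost with library size alone or upper-quartile scaling. Pairs that fell together were the D cyclins, E2F1 and E2F5, the hexokinases HK1 and HK2, SLC2A1 and SLC2A3, LDHA and LDHB, PIM1 and PIM3, SLC1A5 and SLC38A2, MCL1 and BCL2, and HSPD1 and HSPA5. Over all tested genes 40.1% were called higher and 39.2% lower, so opposite calls are also frequent among genes of no relation. Their rate among such genes was not computed. The pairs were chosen with earlier results known, and their number is a description.

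**Figure D4:**
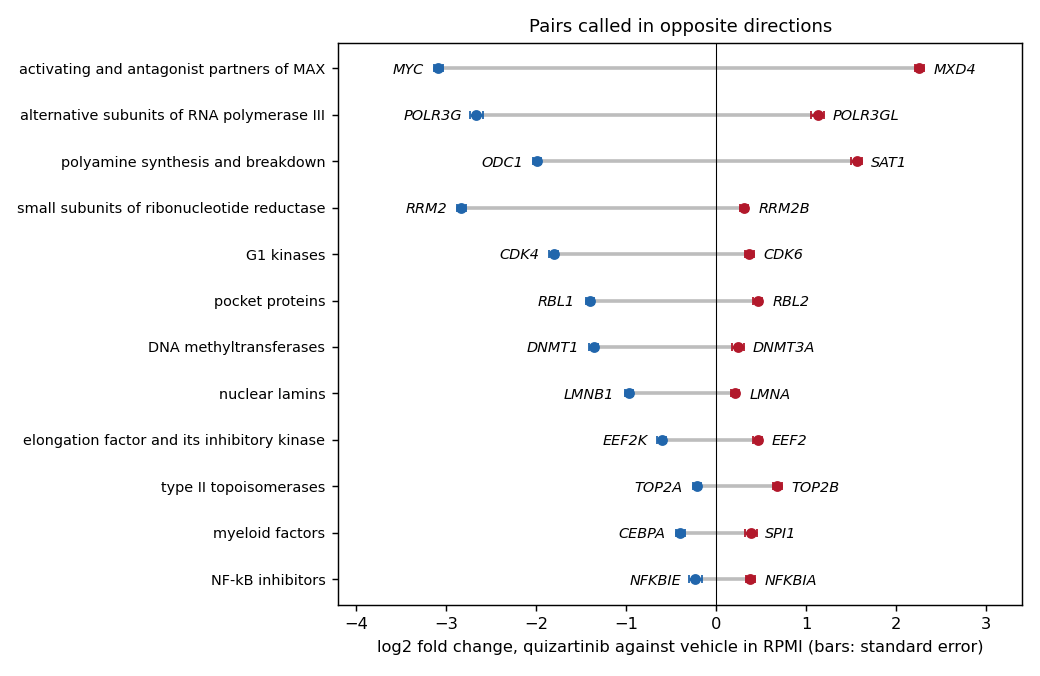
Log2 fold change in RPMI of both genes of 12 of the pairs called in opposite directions, with standard errors as bars and a grey line joining each pair, ordered by the distance between the genes. The distance is largest for MYC and MXD4 (-3.09 and 2.25).

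Letters of known binding sites were counted in the 250 bases before the start of tested genes. RefSeq promoters were found for 8998 of 12998 tested genes, and the 6407 with a single start were used. Both strands were read. The E2F letters stood in 4.76% of promoters of tested genes (2.69% of all 22114 promoters in the table), in 7.85% of those of genes at least 2-fold lower, in 1.86% of those at least 2-fold higher and in 11 of 40 replication genes (27.5%). The E-box CACGTG stood in 9.80%, 12.4% and 8.49% of tested, lower and higher genes (6.34% of the table), in 14 of 95 nucleolar genes (14.7%) and in 11 of 34 lysosomal genes (32.4%). The replication, mitotic and FOXO lists had shares close to the nucleolar one (15%, 14.3% and 17.6%). Genes of the lysosomal list mostly rose and those of the nucleolar list mostly fell, so the same letters stood before genes of both directions. The forkhead letters GTAAACA, bound by FOXO factors, stood in 1.86% of tested, 1.54% of lower and 3.73% of higher genes (3.09% of the table). In the FOXO list 1 of 17 promoters held them (5.88%), against 5.88% of lysosomal and 4.21% of nucleolar genes. CCAAT stood in 37.2%, 41.1% and 36.6% of tested, lower and higher genes (33.4% of the table). It stood in 37 of 49 mitotic (75.5%), 24 of 40 replication (60%) and 10 of 17 FOXO-list genes (58.8%). In the same order, TTCNNNGAA, the letters of STAT sites, stood in 5.96%, 6.05% and 6.21% (7.02% of the table). TGATGCAA, 1 form of the ATF4 response element, stood in 0.343%, 0.515% and 0.414% (0.895% of the table). The median GC content was 65.2% for tested genes, 66.0% for lower and 64.4% for higher ones. E2F variants can overlap each other, and each promoter was counted once per site. A match is a description of letters, and binding was not measured.

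In hBMSC-CM the same dose and time gave a response that differed from the RPMI response for 5881 of 12998 genes by the interaction term (45.2%). Of the genes called in RPMI, 7707 were also called in hBMSC-CM in the same direction and 170 in the opposite direction. Of the 5096 genes lower in RPMI, the interaction was positive for 3098, a smaller fall or a rise in hBMSC-CM, and negative for 49, and of the 5211 higher ones it was negative for 2273 and positive for 86. The interaction subtracts the same RPMI values by which these genes were called, so these counts are no separate evidence. The genes named next were chosen with earlier results of these data known. For PIM1 the log2 fold change was -1.34 in RPMI and 0.49 ± 0.05 in hBMSC-CM (interaction 1.84, adjusted p = 1.03e-12), and for CISH -1.29 and 0.29 ± 0.06 (1.58). Both STAT5 targets fell in RPMI and rose in the conditioned medium. NOLC1 (-2.27 and -0.64 ± 0.06), CAD (-2.30 and -0.90 ± 0.05), ODC1 (-1.99 and -1.21 ± 0.04) and MCM5 (-1.56 and -0.74 ± 0.04) fell less in hBMSC-CM, and TXNIP (1.82 and 1.10 ± 0.05) rose less. SPRY4 had -4.38 and -1.06 ± 0.16, and the RPMI value rests on few counts in the treated libraries. For ASNS the responses were not shown to differ (-1.61 and -1.94 ± 0.20, adjusted p = 0.417).

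**Figure D5:**
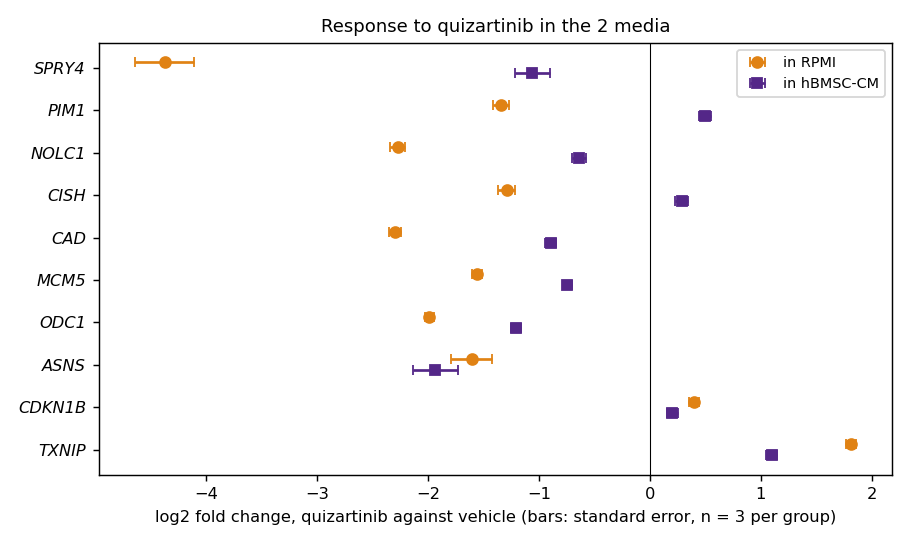
Log2 fold change of quizartinib against vehicle for 10 genes in RPMI (orange circles) and in hBMSC-CM (violet squares), with standard errors from the model of 12 libraries as bars. The genes were chosen with earlier results of these data known. The circles lie farther from 0 than the squares for 9 genes past the interaction test, among them PIM1 at -1.34, and for ASNS the bars are wide.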

How the data were processed

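Members of the comparison and all gene lists were chosen with earlier results of these data known. The authors trimmed adapters with BBDuk, aligned reads to human genome hg38 (Ensembl annotation) with STAR 2.6.0a, and deposited raw counts per gene name, adding identifiers that share a name. Strand use is not given in the sources used here. The study describes replicates as biological. From these counts, the 12998 genes kept averaged 1 count and 1 CPM (without TMM factors) or more across 12 libraries. Groups came from the labels. The fit was edgeR 4.0.16 in R 4.3.3, with TMM factors, 4 group means, the quasi-likelihood test (8 residual degrees of freedom) and Benjamini-Hochberg adjustment over all tested genes at 0.05. Standard errors are the log2 fold change divided by the square root of F. On simulated counts for this comparison with 12998 genes, 59 of 67 genes changed 1.5-fold, 67 of 67 changed 2-fold and 66 of 66 changed 4-fold were recovered. There were 9 false calls (4.48% of calls). Only 200 genes, all well counted, were changed, so a response as wide as that in the data was not simulated. Named genes were the 12 largest called changes in each direction of at least 10 CPM with no overlap between the groups. Preset anchors, the 2 largest changes per direction in each list, and the pairs were added. Alternatives were other scalings, filters and tests (DESeq2 1.42.0, limma 3.58.1), a replicate block, RPMI libraries alone, and leaving out each library. Coordinates are from GENCODE on GRCh38, matched by name for 88.4% of tested genes. Some genes are not reported here.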

Additional observations from a re-analysis of the deposited data

Results flagged for a closer look

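The response to quizartinib differed between RPMI and hBMSC-CM for 5881 genes by the interaction term of edgeR's quasi-likelihood test, in which a positive value means a less negative or more positive response in hBMSC-CM. The 10 genes named for this comparison were chosen with earlier results of these data known. Among them, the difference in log2 fold change was 3.32 for SPRY4, 1.84 for PIM1, 1.64 for NOLC1, 1.58 for CISH, 1.40 for CAD, 0.82 for MCM5 and 0.78 for ODC1. It was negative for TXNIP (-0.72) and CDKN1B (-0.20), which rose more in RPMI. For ASNS it was -0.33 and did not pass the test (adjusted p = 0.417).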

How the results depend on the processing

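The number of genes at least 2-fold higher, 1252 as reported, was 1916 with edgeR's own filter and 2403 with no filter on low counts, settings that also test more genes (15884 and 30572). The other 4 totals over all tested genes stayed within 1.5 times under every alternative run, and no called named gene changed direction. Counts within gene lists moved by more than that in 50 cases and did not in 1806. With no filter, which moved log2 fold changes by -0.10 on average, CDKN1A, MDM2, LAMP1 and EIF4EBP2 were called lower. Leaving out each library in turn gave 5062 to 5155 genes higher, 4886 to 4954 lower, 1241 to 1291 and 1511 to 1543 at least 2-fold higher and lower, and 5406 to 5704 in the interaction. With the replicate block the counts were 5161, 5063, 1248 and 1536, and 5679 in the interaction, with no called direction changed. Same-numbered vehicle and quizartinib libraries did not deviate together (r across genes of -0.11, -0.06 and -0.05), and the main fit did not pair them. Whether the cultures were set up in pairs cannot be told from these values, and the labels do not say. Upper-quartile scaling moved the log2 fold change of the median gene from 0.02 to 0.13 and the share of higher calls from 50.6% to 57.6%, library size alone to 56.8%. Values of named genes under alternatives lost the call in 47 cases, gained it in 14 and kept their side of the threshold in 5155. At low counts the precision is limited, with a median standard error of 0.20 under 3 CPM against 0.07 over all genes.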
